A study of Mus musculus with 6 samples.

Results

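Wnt genes were followed in cultured satellite cells of the mouse, which are the stem cells of muscle, by RNA sequencing of 3 libraries with the label Islr knockout and 3 with the label control. They were chosen by name, not by value: all genes of the deposited table named as Wnt ligands, frizzled receptors, secreted Wnt inhibitors of the Sfrp, Dkk and Wif families, R-spondins, Lrp5, Lrp6, Ror1, Ror2, Ryk, Axin1, Axin2, Nkd1, Nkd2, Znrf3, Rnf43, Ctnnb1, Porcn, Wls, Tcf7, Tcf7l1, Tcf7l2 and Lef1. The choice, made with earlier results of these data known, gave 58 genes of the 27366 features in the table. They comprised 18 ligands, 10 frizzled receptors, 5 other receptors and co-receptors, 8 secreted inhibitors, 4 R-spondins, 2 genes of ligand secretion, 7 intracellular or membrane regulators and 4 transcription factors.

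Both groups were satellite cells in growth culture at day 4, in medium with serum and basic FGF, and the genotype was given as Islr knockout or control, with no strain, age, allele or Cre driver stated. The Islr product is a secreted protein that carries leucine-rich repeats. The design text of the series says that cells were sorted by flow cytometry for the presence or absence of Islr, which is another basis of grouping than a knockout. The labels number the libraries 1 to 3 in each group and leave unsaid whether each came from its own animal or culture. The p-values therefore measure only the spread between these libraries, which may be technical. Values are reads divided by the authors' size factor for the library, called scaled reads here.

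Islr did not follow the labels in 2 of the 6 libraries. It stood at 257, 7.38 and 10.9 scaled reads in the knockout-labelled libraries 1, 2 and 3, and at 181, 12.8 and 1579 in the control-labelled ones 1, 2 and 3. The library labelled Islr knockout 1 held more Islr than control 1 and control 2, and the library labelled control 2 stood close to knockout 2 and 3, so groups are named by their labels throughout and every direction below is one between labels. Which stretch of Islr was deleted was not given in the sources used here. Reads from outside it check nothing. Totals were 16456917 to 20124943 reads in the knockout-labelled libraries and 16776805 to 20531276 in the control-labelled ones. Pax7, the transcription factor that defines satellite cells, was present in every library, at 1319 to 1667 scaled reads in the knockout-labelled libraries and 1233 to 2729 in the control-labelled ones. Myogenin (Myog), which marks entry into differentiation, differed widely within both groups, at 37228, 1998 and 5737 scaled reads in the knockout-labelled libraries 1, 2 and 3 and 43370, 417 and 43261 in the control-labelled ones 1, 2 and 3.

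Wnt proteins are secreted lipid-modified signals. Porcn attaches the lipid and Wls carries the ligand to the cell surface, where frizzled receptors bind it together with Lrp5 or Lrp6, or with Ror or Ryk receptors. In the canonical branch this spares beta-catenin (Ctnnb1) from destruction by the Axin complex, and beta-catenin then activates genes together with Tcf and Lef factors. The other branches act on cell polarity and calcium. In muscle, Wnt7a acting through Fzd7 and the polarity protein Vangl2 is known to expand satellite cells by symmetric division, and canonical signalling is known to accompany differentiation.

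Levels across the 58 genes were compared per kilobase of exon, as the mean over all 6 libraries. Of the 58 genes, 41 had a mean of at least 10 scaled reads and 52 a mean of at least 1. The highest level was that of Ctnnb1, at 2136 scaled reads per kilobase. Receptors were well represented: all 10 frizzled genes had a mean of at least 10 scaled reads, and they spanned 9.05 per kilobase for Fzd10 to 330 per kilobase for Fzd2, with Fzd7 at 234 and Fzd1 at 214. Ryk, an atypical tyrosine kinase receptor, stood at 571 per kilobase, Lrp5 at 167 and Lrp6 at 97.4. Of the secretion genes, Wls stood at 457 and Porcn at 86.4 per kilobase.

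Ligands were spread over the whole range. Wnt9a was the highest, at 233 scaled reads per kilobase, followed by Wnt5a at 63.7, Wnt7b at 34.6 and Wnt11 at 26.9. Another 9 ligands, Wnt5b, Wnt10b, Wnt4, Wnt7a, Wnt2, Wnt2b, Wnt10a, Wnt3 and Wnt6, lay between 18.8 and 1.13 per kilobase. The remaining ligands, Wnt1, Wnt16, Wnt9b, Wnt3a and Wnt8b, were below 1 per kilobase, and the lowest was Wnt8b with 1 read in all 6 libraries together. There were 4 pairs of neighbouring ligand genes. Wnt3a and Wnt9a, whose spans on chromosome 11 are 16175 bases apart, stood at 0.0703 and 233 per kilobase. Wnt9b and Wnt3, 24328 bases apart on chromosome 11, stood at 0.117 and 1.17, and Wnt10b and Wnt1, 11706 bases apart on chromosome 15, at 13.1 and 0.846. Wnt6 and Wnt10a, 6193 bases apart on chromosome 1, were close in level, at 1.13 and 1.55. Among the secreted inhibitors Sfrp2 was the highest, at 62.4 per kilobase, while Dkk1 and Sfrp5 had fewer than 1 scaled read on average. R-spondins, which strengthen Wnt signalling by removing Znrf3 and Rnf43 from the surface, were all low, from 0.0574 per kilobase for Rspo2 to 2.85 for Rspo3. Of these membrane ligases Znrf3 stood at 57.9 per kilobase and Rnf43 at 0.326. The transcription factors ranged from 13.9 per kilobase for Lef1 to 191 for Tcf7. Neighbours in these orders were not tested against each other, and the spread between libraries was wide for many of them.

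**Figure D1:**
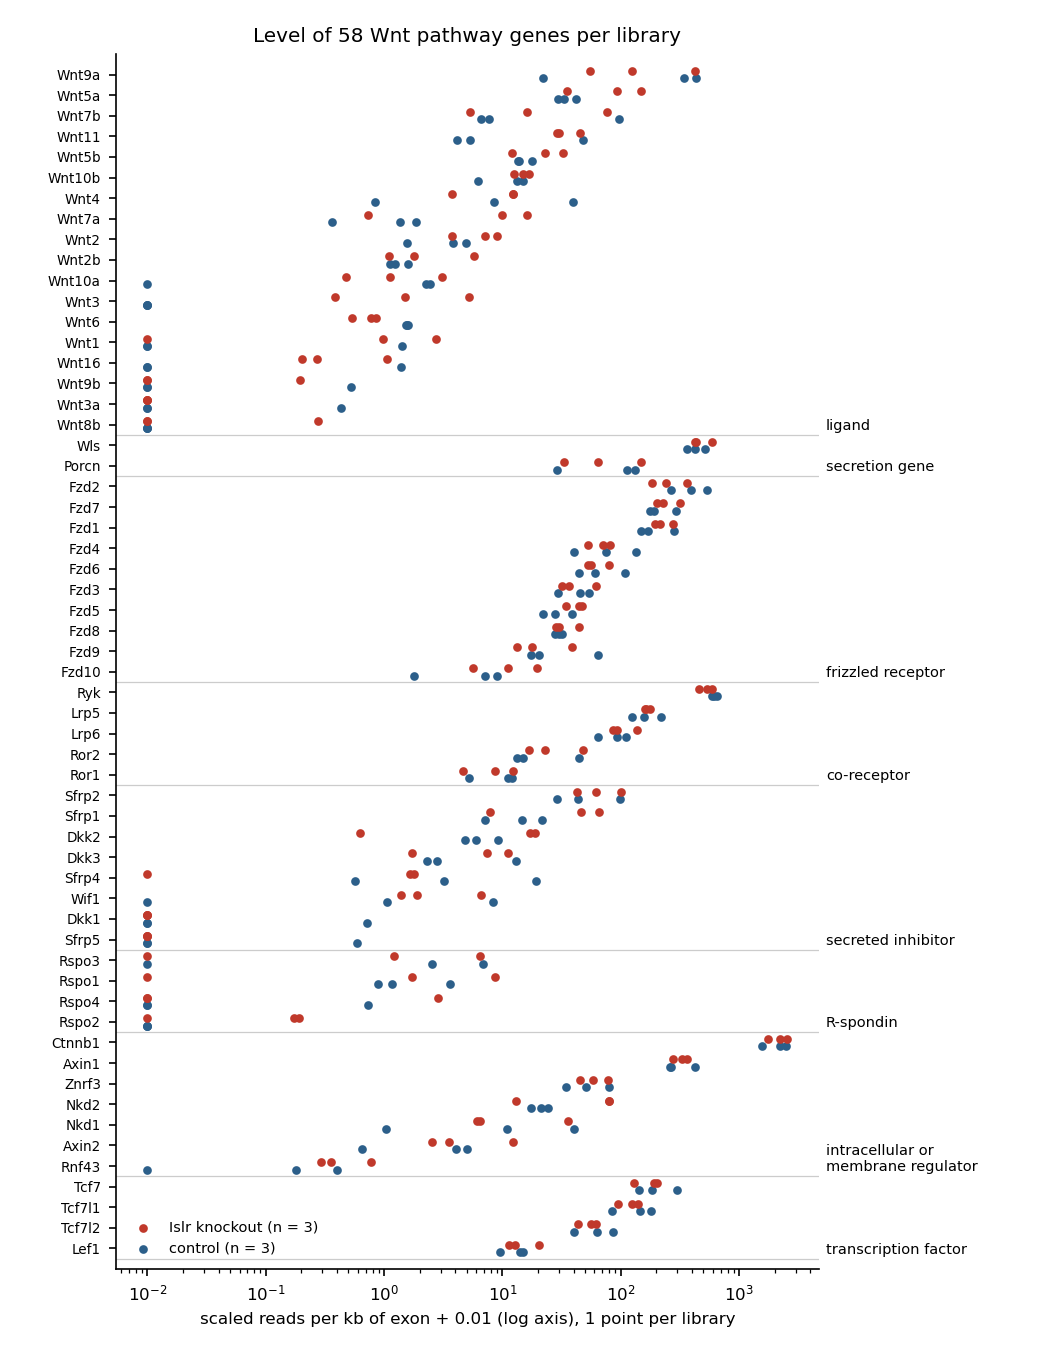
Level of each of the 58 Wnt genes in every library, grouped by role, as scaled reads per kilobase of exon plus a small offset on a log axis. Ctnnb1 is the highest gene, the mean of every frizzled receptor exceeds that of every R-spondin, and the ligands run from Wnt9a at 233 per kilobase down to Wnt8b at 0.0442.

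The genes differed in how steady they were over the 6 libraries. Those with a mean of at least 10 scaled reads and reads in every library are ranked here. Ryk ranged 1.43-fold between its lowest and highest library, Fzd8 1.58-fold, Wls and Ctnnb1 1.61-fold each and Axin1 1.63-fold. At the other end, Wnt4 ranged 47.3-fold, Wnt7a 46-fold, the dishevelled antagonist Nkd1 39.1-fold, Dkk2 30.3-fold and Wnt9a 19.4-fold. The lowest library held only 3 reads for Wnt4, 1 for Wnt7a, 4 for Nkd1 and 2 for Dkk2. Counting error is therefore large in these ratios, while Wnt9a had 63 reads in its lowest library. Sfrp4, which has no such ratio, ran from 0 to 80.1 scaled reads. These are descriptions over both labels.

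The main comparison asked which Wnt genes separated the Islr knockout label from the control label. It used limma on log2(scaled reads + 1), with p-values adjusted over the 20344 genes with a mean of at least 1. Of the 58 Wnt genes 52 were tested, and 6 (Rspo2, Wnt3a, Wnt8b, Wnt9b, Dkk1 and Sfrp5) were too low. At a limma adjusted p under 0.05, 0 of the 52 were called, as were 0% of all genes. At an unadjusted p under 0.05 limma gave 2 of 52 (3.85%), Wnt3 and Wnt5a, both higher in the knockout-labelled libraries. The share of all genes was 1.36%, with 1.15% higher and 0.211% lower. Wnt3 had no reads in any control, so it passed the filter through the knockout-labelled libraries alone. Rspo4 likewise passed through the knockout-labelled libraries, with a mean of 2.23 scaled reads there and 0.568 in the controls. Both genes are counted in the later shares and medians of the tested Wnt genes and of their roles, which are a description. Among genes with a mean of at least 10, limma had 0 of 41 Wnt genes at an unadjusted p under 0.05, against 0.84% of all such genes. An edgeR quasi-likelihood test on recovered reads called 0 and had 1 of 39 tested Wnt genes, Wnt5a, at an unadjusted p under 0.05, against 1.14% of all genes it tested. DESeq2 called 0 and had 6 of 58 at an unadjusted p under 0.05, against 1.17% of all genes.

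Most Wnt genes had estimates above 0. The fold change on the log2 scale, knockout over control on the log2(value + 1) scale, was above 0 for 36 of 52 Wnt genes (69.2%), against 53% of all genes, and its median was 0.20 against 0.03 for all genes tested. Because the scale adds 1 to each value, changes of low genes are understated. By role, 13 of 15 ligands (median 0.55) and all 7 intracellular or membrane regulators (median 0.48) were above 0, as were 4 of 6 secreted inhibitors (median 0.30). The frizzled receptors were split, with 5 of 10 above 0 and a median of 0.07. The receptors and co-receptors had 3 of 5 above 0 (median 0.05), the R-spondins 2 of 3 (median 0.05), the secretion genes 1 of 2 (median -0.01) and the transcription factors 1 of 4 (median -0.16). Within replicate numbers 1, 2 and 3 the median difference was -0.01, 1.89 and 0.29 for ligands. It was 0.15, 1.51 and 0.33 for the regulators and -0.35, 1.47 and 0.16 for the secreted inhibitors. All of these were highest at number 2, whose control stood close to knockout 2 and 3 in Islr reads. In the authors' deposited table of fold changes Wnt4, Wnt7b, Wnt10a and Nkd1 were below 0, and Dkk2 and Fzd3 above 0. No test was made of these medians.

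**Figure D2:**
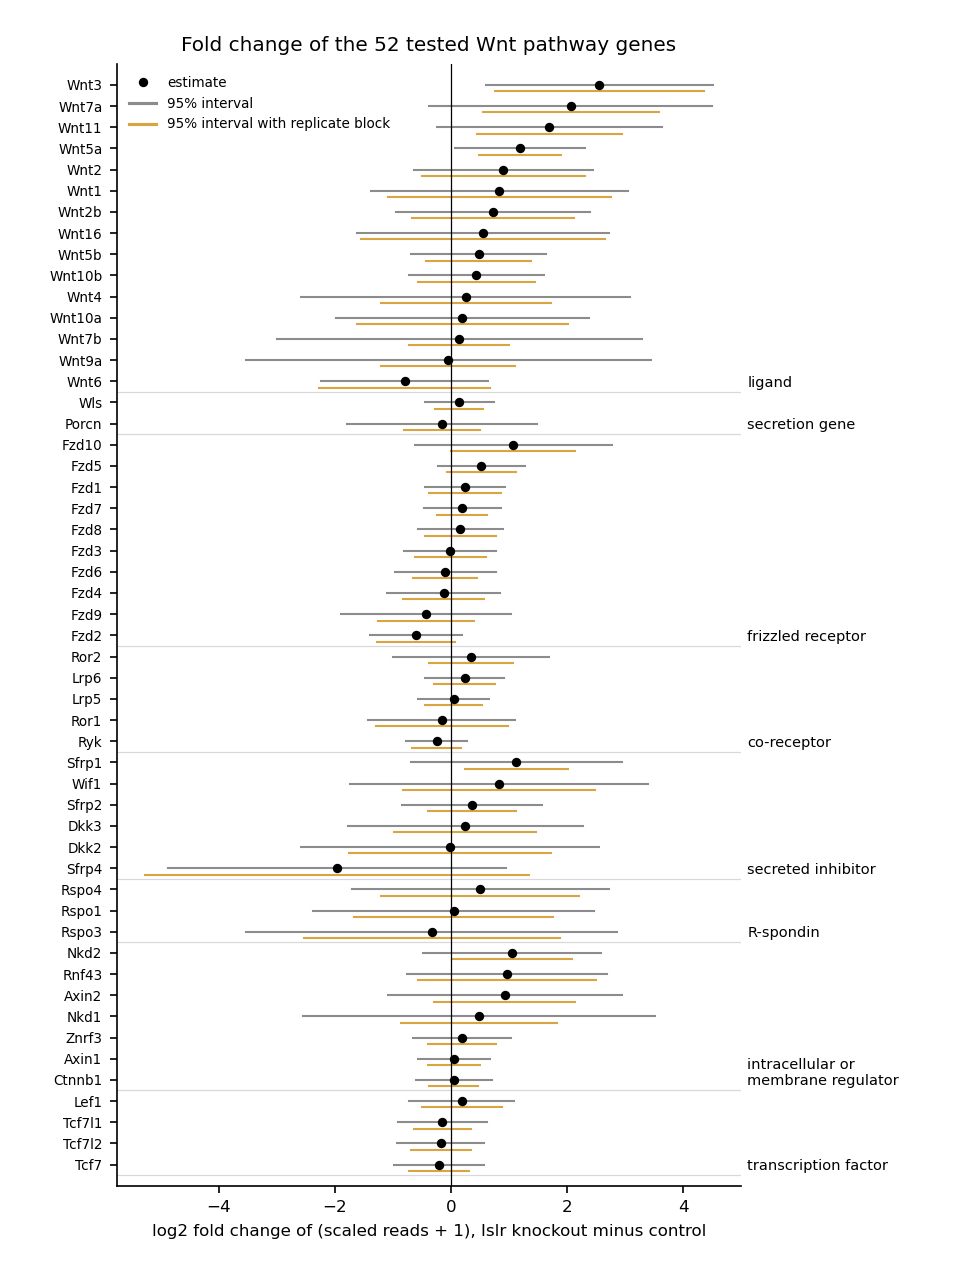
Log2 fold change of the 52 tested Wnt genes, knockout minus control, with the 95% confidence interval of limma in grey and that of the fit with replicate number as a block in orange. The intervals of Wnt3 and Wnt5a lie above 0 in both fits, and most frizzled receptors, co-receptors and transcription factors lie close to 0.

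Among ligands, Wnt5a is the best known activator of the non-canonical branches. It stood at 273, 732 and 1168 scaled reads in the knockout-labelled libraries 1, 2 and 3, and 231, 258 and 330 in the control-labelled ones 1, 2 and 3. The knockout-labelled libraries 2 and 3 were above all others, while knockout 1 lay among the controls. Its log2 fold change was 1.19 ± 0.49 (SE) and its 95% confidence interval ran from 0.07 to 2.31 (limma adjusted p = 1.0). With the replicate number as a block, the SE was 0.31 and the interval 0.48 to 1.90 (limma adjusted p = 0.92). Wnt5a lies at chr14:28504750-28527448 on the plus strand of GRCm38. It shares 358 exon bases with the antisense gene Gm2670, which averaged 4.59 scaled reads, and strand handling was not given in the sources used here.

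Wnt7a, which expands satellite cells through Fzd7, stood at 2.28, 31.4 and 51.1 scaled reads in the knockout-labelled libraries 1, 2 and 3, and 1.11, 5.83 and 4.26 in the control-labelled ones 1, 2 and 3. Knockout 2 and 3 were again above every control, and knockout 1 was below controls 2 and 3. On the log2 scale the difference was 2.06 ± 1.07 (SE), with an interval from -0.37 to 4.50 (limma adjusted p = 1.0). The replicate block narrowed the interval to 0.54 to 3.58 (limma adjusted p = 0.92). Its receptor gene Fzd7 stood at 1430, 920 and 1034 scaled reads in the knockout-labelled libraries and 1317, 859 and 799 in the control-labelled ones, a log2 fold change of 0.20 ± 0.29 (SE) with an interval from -0.47 to 0.86. Vangl2, the polarity gene downstream, stood at 383, 478 and 538 scaled reads in the knockout-labelled libraries and 331, 726 and 554 in the control-labelled ones, and its interval ran from -0.91 to 0.62. Neither Fzd7 nor Vangl2 separated the labels.

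Wnt3, a canonical ligand, was the one Wnt gene whose knockout-labelled libraries all exceeded the control-labelled ones, which is 1.92% of the 52 tested against 2.65% of all genes. It had 1, 5 and 19 reads in the knockout-labelled libraries 1, 2 and 3, or 1.14, 4.61 and 15.9 scaled reads, and 0 reads in each control. Taking 3 reads over the whole control group as the floor, its mean in the knockout-labelled libraries was 7.05-fold that floor. The floor covers counting error in the controls only, and the knockout mean was taken as measured. Limma gave an adjusted p of 1.0 with an interval from 0.60 to 4.51 on the log2(value + 1) scale, which depends on the 1 added to each value, and the gene was too low for the edgeR filter. It passed the filter on a mean of 1 through the knockout-labelled libraries alone. Its mean in the knockout-labelled libraries was 7.22 ± 7.72 scaled reads (SD, n = 3), so 1 library carried most of the level.

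Wnt11, a ligand linked to the polarity branch, separated by label only at numbers 2 and 3. It stood at 186, 119 and 125 scaled reads in the knockout-labelled libraries 1, 2 and 3, and 198, 22.1 and 17.05 in the control-labelled ones 1, 2 and 3. Its log2 fold change was 1.70 ± 0.85 (SE) with an interval from -0.25 to 3.64 (limma adjusted p = 1.0), and from 0.45 to 2.94 with the replicate block (limma adjusted p = 0.92). The estimate was 0.85 by edgeR and 0.86 by DESeq2, and 2.79 without control 1 and 1.06 without control 3. Of its exons, 364 bases overlap the pseudogene Gm8398 on the other strand.

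The opposite pattern was found for Wnt6 and Ryk, whose knockout-labelled libraries all lay below the control-labelled ones, which is 3.85% of the Wnt genes tested against 2.11% of all genes. Wnt6 rested on few reads, at 1, 2 and 2 in the knockout-labelled libraries and 3, 3 and 4 in the control-labelled ones, with a log2 fold change of -0.80 ± 0.63 (SE). Ryk, a far more abundant transcript, stood at 2406, 2659 and 2065 scaled reads in the knockout-labelled libraries 1, 2 and 3, and 2672, 2942 and 2799 in the control-labelled ones 1, 2 and 3. The labels were apart by a narrow margin, since the highest knockout value, 2659, was just under the lowest control value, 2672. The log2 fold change of Ryk was -0.25 ± 0.23 (SE), with an interval from -0.77 to 0.28 (limma adjusted p = 1.0).

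**Figure D3:**
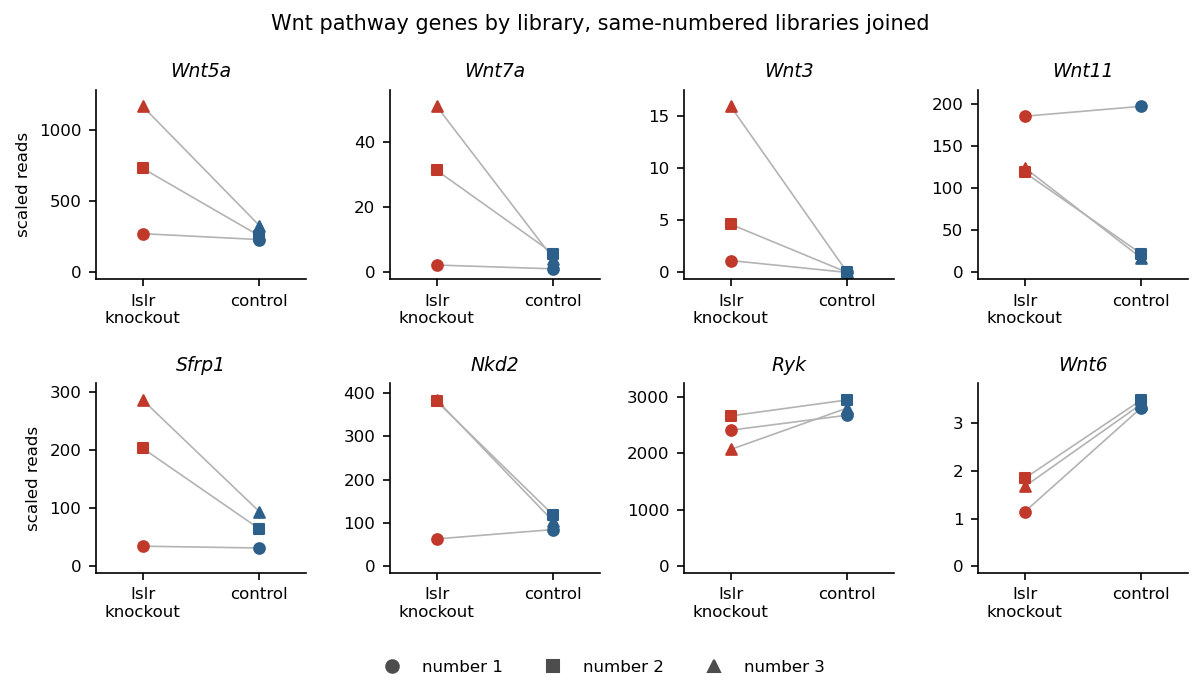
Scaled reads of 8 Wnt genes in each library on linear axes from 0, knockout left and control right, with same-numbered libraries joined by a line. In the upper row and in Sfrp1 and Nkd2 the lines of numbers 2 and 3 run down towards the control, while the line of number 1 is nearly flat in these genes. The lines of Ryk and Wnt6 run up towards the control at all 3 numbers.

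Among the receptors, Fzd2 had the lowest fold change of the frizzled genes. It stood at 1333, 877 and 671 scaled reads in the knockout-labelled libraries 1, 2 and 3, and 1440, 972 and 1951 in the control-labelled ones 1, 2 and 3. The groups overlapped, and the log2 fold change was -0.60 ± 0.35 (SE) with limma adjusted p = 1.0. Fzd5 stood at 326, 240 and 305 scaled reads in the knockout-labelled libraries and 270, 193 and 153 in the control-labelled ones, for a log2 fold change of 0.52 ± 0.33 (SE) and limma adjusted p = 1.0. Fzd10 had the highest fold change of the receptors, 1.08 ± 0.75 (SE), at 63.9, 18.5 and 36.0 scaled reads in the knockout-labelled libraries and 23.3, 5.83 and 29.0 in the control-labelled ones. The other 7 frizzled genes had log2 fold changes between -0.43 and 0.24. Lrp5, Lrp6, Ror1 and Ror2 lay between -0.16 and 0.34. Wls stood at 3805, 3697 and 5181 scaled reads in the knockout-labelled libraries and 3734, 3211 and 4499 in the control-labelled ones, an interval of -0.45 to 0.74 on the log2 scale.

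Sfrp1, which binds Wnt ligands outside the cell and blocks them, stood at 34.2, 203 and 286 scaled reads in the knockout-labelled libraries 1, 2 and 3, and 31.1, 64.1 and 93.8 in the control-labelled ones 1, 2 and 3. Number 1 was low under both labels, and numbers 2 and 3 were higher with the knockout label. Sfrp1 differed by 1.13 ± 0.80 (SE) on the log2 scale, with an interval from -0.69 to 2.95, and from 0.24 to 2.02 with the replicate block (limma adjusted p = 1.0 and 0.92). Sfrp4 ran the other way and had most of its reads in 1 library: it stood at 6.85, 7.38 and 0 scaled reads in the knockout-labelled libraries and 13.3, 2.33 and 80.1 in the control-labelled ones, with a log2 fold change of -1.96 ± 1.28 (SE). Sfrp2, the most abundant inhibitor, stood at 92.4, 133 and 214 scaled reads in the knockout-labelled libraries and 94.4, 61.8 and 211 in the control-labelled ones. Dkk3 and Wif1 had log2 fold changes of 0.25 and 0.82, each with an SE of at least 0.89. The sign of Dkk2 depended on the fit, at -0.02 by limma and 0.86 by edgeR.

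Of the R-spondins, Rspo1, known for its part in muscle differentiation, stood at 0, 16.6 and 3.35 scaled reads in the knockout-labelled libraries and 2.22, 6.99 and 1.70 in the control-labelled ones. Rspo3, the highest of the family, stood at 0, 3.69 and 20.1 scaled reads in the knockout-labelled libraries and 7.78, 0 and 21.3 in the control-labelled ones. The groups overlapped in both genes, and the 95% confidence intervals of the log2 fold change were wide, from -2.38 to 2.47 for Rspo1 and from -3.53 to 2.87 for Rspo3.

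Nkd2, which like Nkd1 binds dishevelled and dampens Wnt signalling, stood at 62.7, 381 and 384 scaled reads in the knockout-labelled libraries 1, 2 and 3, and 84.4, 118 and 103 in the control-labelled ones 1, 2 and 3. Here again knockout 2 and 3 stood above all controls and knockout 1 below them. Its log2 fold change was 1.05 ± 0.67 (SE) with limma adjusted p = 1.0, and the interval with the replicate block ran from 0.02 to 2.08 (limma adjusted p = 0.92). Axin2, a scaffold of the destruction complex and the customary transcript of canonical signalling, stood at 67.3, 13.8 and 19.3 scaled reads in the knockout-labelled libraries and 27.8, 3.5 and 22.2 in the control-labelled ones. Its log2 fold change was 0.93 ± 0.89 (SE) with an interval from -1.09 to 2.94, and it was 0.27 without knockout 1 and 0.085 without control 2. Ctnnb1 stood at 9062, 11431 and 13203 scaled reads in the knockout-labelled libraries and 8178, 13051 and 11602 in the control-labelled ones. Its interval of -0.60 to 0.70 describes the difference between these label groups only. Of the transcription factors, Tcf7l2 stood at 546, 496 and 379 scaled reads in the knockout-labelled libraries and 550, 756 and 356 in the control-labelled ones, and all 4 log2 fold changes lay between -0.21 and 0.18. Exons of Ctnnb1 share 759 bases with the opposite-strand gene Ulk4, which averaged 36.6 scaled reads, and those of Axin2 share 209 bases with the antisense gene Gm11670, which averaged 0.19.

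Differences were next read within each replicate number. The median over the 52 tested Wnt genes was 0.09 at number 1, 0.41 at number 2 and 0.28 at number 3 on the log2 scale, against 0.02, 0 and 0.01 over all genes. The library labelled knockout was higher at all 3 numbers for 10 Wnt genes (19.2%), Wnt3, Wnt5a, Wnt7a, Fzd5, Fzd7, Fzd10, Ror2, Sfrp1, Rnf43 and Wls, against 12.2% of all genes. It was lower at all 3 numbers for 3 (5.77%), Fzd2, Ryk and Wnt6, against 12.1%. With the replicate number as a block 0 Wnt genes were called, as in the fit without it, and 7 of 52 (13.5%) had an unadjusted limma p under 0.05: Wnt3, Wnt5a, Wnt7a, Wnt11, Sfrp1, Nkd2 and Fzd10. The share over all genes was 4.59%.

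**Figure D4:**
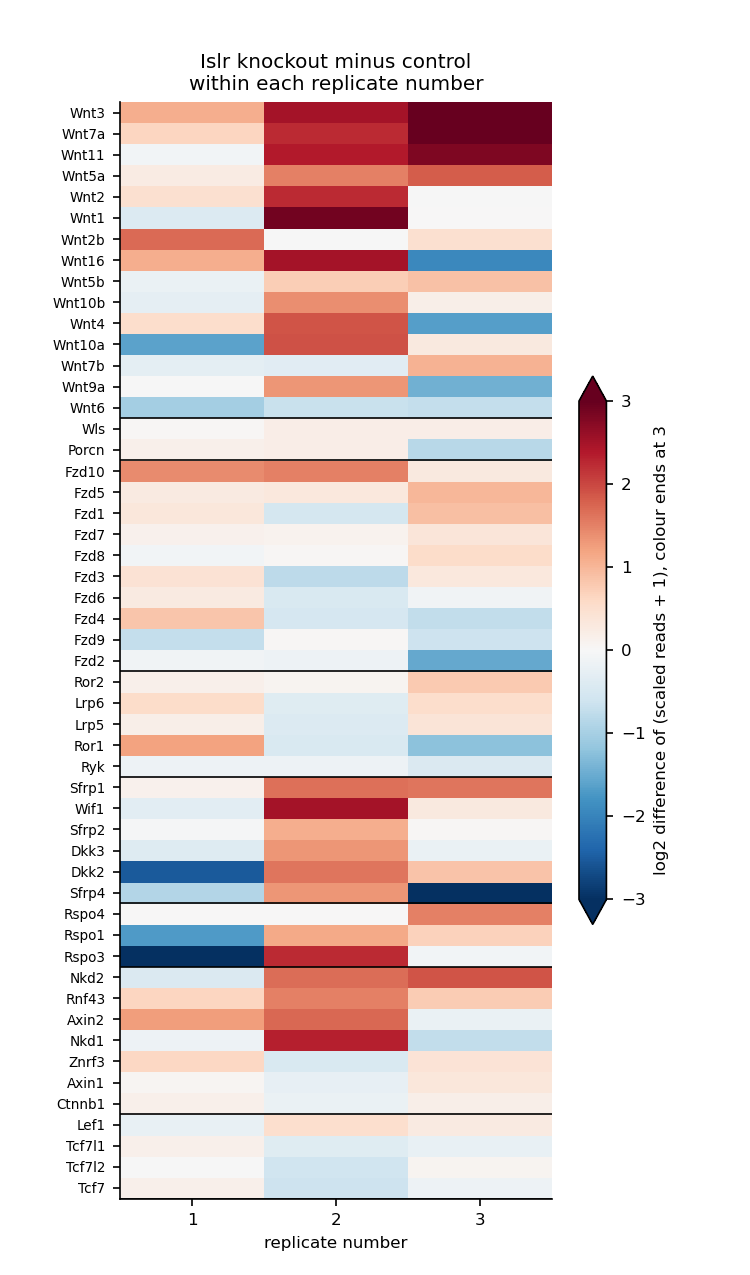
Log2 difference of scaled reads plus 1, knockout minus control, within replicate numbers 1, 2 and 3 for the 52 tested Wnt genes, with red higher and blue lower in the library labelled knockout and the colour ending at 3. Wnt5a, Wnt7a and Wnt11 are red at numbers 2 and 3, while the transcription factors and most frizzled receptors, apart from Fzd10 and Fzd2, are pale.

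Because Islr reads did not follow the labels in knockout 1 and control 2, values were also taken without these 2 libraries, a choice made after the data were seen. No cut-off was set: control 1, at 181 scaled reads of Islr, was kept although it was below knockout 1 at 257. With the deleted stretch not given, Islr reads cannot show which libraries depart from their label. In the remaining 4 libraries 0 Wnt genes were called, and 13 of 52 (25%) had an unadjusted limma p under 0.05, against 8% of all genes. Higher with the knockout label were Wnt3, Wnt5a, Wnt7a, Wnt7b, Ror2, Dkk2, Sfrp1 and Nkd2, and lower were Wnt9a, Fzd2, Sfrp4, Nkd1 and Porcn. The lowest limma adjusted p among them was 0.154, for Wnt9a at a log2 fold change of -2.20 and Nkd2 at 2.02. Here the labels are not balanced over the numbers, and knockout 2 and 3 are set against controls 1 and 3, which had the most Myog.

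Both libraries of number 1 were left out as well, also after the data were seen. Number 1 is the number at which Wnt5a, Wnt7a, Wnt11, Sfrp1 and Nkd2 differed least, so larger differences follow from that choice and the values are a description. In the remaining 4 libraries 0 Wnt genes were called, and 6 of 52 (11.5%) had an unadjusted limma p under 0.05 against 2.25% of all genes. These were Wnt3 at a log2 fold change of 3.28, Wnt7a at 2.78, Wnt11 at 2.59, Nkd2 at 1.79, Wnt5a at 1.66 and Sfrp1 at 1.62, each with a limma adjusted p of 1.0. The library labelled knockout was higher at both numbers for 21 of 52 Wnt genes (40.4%), against 25% of all genes.

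Markers of some other cell types were highest in the same libraries as Wnt5a, Wnt7a, Sfrp1 and Nkd2. The summed level of 9 endothelial markers was 438, 1660 and 1575 scaled reads in the knockout-labelled libraries 1, 2 and 3, and 448, 714 and 630 in the control-labelled ones 1, 2 and 3, with 9 of 9 higher on average with the knockout label. For 7 Schwann cell markers it was 551, 1604 and 1496 scaled reads in knockout 1, 2 and 3 and 541, 563 and 545 in control 1, 2 and 3 (6 of 7 higher). For 8 macrophage and immune markers it was 97.0, 480 and 913 scaled reads in knockout 1, 2 and 3 and 190, 149 and 308 in control 1, 2 and 3 (8 of 8 higher). All 3 sums were thus highest in knockout 2 and 3. Of the fibroblast markers Gsn was the most abundant, at 2870, 3909 and 4703 scaled reads in knockout 1, 2 and 3 and 3661, 935 and 6347 in control 1, 2 and 3. The other 11 summed to 613, 2602 and 5134 scaled reads in knockout 1, 2 and 3 and 782, 741 and 1896 in control 1, 2 and 3 (9 of 11 higher). Without Gsn the sum was thus highest in knockout 2 and 3. With Gsn the 12 markers summed to 3483, 6511 and 9837 scaled reads in knockout 1, 2 and 3. In control 1, 2 and 3 they summed to 4443, 1676 and 8243, so control 3 then exceeded knockout 2. Pericyte markers other than Des, which muscle cells also express, summed to 5327, 3336 and 2889 scaled reads in knockout 1, 2 and 3 and 3549, 2645 and 3864 in control 1, 2 and 3 (4 of 6 higher). Tenocyte markers summed to 1608 to 2403 in knockout and 1537 to 3012 in control libraries (2 of 5 higher). None of these markers was at 0 in all libraries. Ptprc, which defines immune cells, stood at 1.14, 0 and 10.04 scaled reads in the knockout-labelled libraries and 0 in each control. The part of these cell types in the Wnt values was not tested, and in bulk RNA fewer cells of a type and less RNA per cell cannot be told apart.

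The start regions of 3 ligands that stood higher with the knockout label at numbers 2 and 3 are shown because the motif by which Tcf and Lef factors bind differed among them. Promoters are from RefSeq on GRCm38.p6, 300 bases from 250 before to 50 after the start, 5′ to 3′ on the gene's strand, and 41 of the 58 Wnt genes matched, with 51 promoters. The Tcf/Lef word searched, on both strands, was CTTTG followed by 2 bases that are each A or T, and matches are in capitals. Wnt3 is at chr11:103773925-103774224 on the plus strand, Wnt11 at chr7:98834862-98835161 on the plus strand, and Wnt7a at chr6:91411304-91411603 on the minus strand.
Wnt3: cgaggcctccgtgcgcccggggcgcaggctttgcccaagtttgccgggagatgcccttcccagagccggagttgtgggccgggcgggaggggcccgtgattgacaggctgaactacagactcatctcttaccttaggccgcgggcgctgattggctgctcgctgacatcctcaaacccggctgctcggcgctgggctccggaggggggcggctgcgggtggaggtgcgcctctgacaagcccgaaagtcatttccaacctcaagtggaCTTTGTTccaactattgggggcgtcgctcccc
Wnt11: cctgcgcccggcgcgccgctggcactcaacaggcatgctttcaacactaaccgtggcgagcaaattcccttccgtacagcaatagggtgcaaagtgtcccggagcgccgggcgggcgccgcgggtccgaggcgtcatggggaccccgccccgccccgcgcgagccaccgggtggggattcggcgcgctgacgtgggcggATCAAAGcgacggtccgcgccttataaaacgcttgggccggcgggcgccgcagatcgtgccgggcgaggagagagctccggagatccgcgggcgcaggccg
Wnt7a: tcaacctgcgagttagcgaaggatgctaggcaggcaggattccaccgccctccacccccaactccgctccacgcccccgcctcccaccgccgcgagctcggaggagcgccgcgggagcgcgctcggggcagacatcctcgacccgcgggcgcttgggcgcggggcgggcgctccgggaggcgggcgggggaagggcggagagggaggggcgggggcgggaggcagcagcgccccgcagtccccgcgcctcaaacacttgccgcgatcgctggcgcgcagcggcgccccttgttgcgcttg
Wnt3 and Wnt11 each held 1 word and Wnt7a none. A second Wnt11 promoter at chr7:98838595-98838894 also held none. Over the Wnt genes 7 of 51 promoters held such a word, against 16.9% of all 32851 promoters of the same length. A match is a description of letters and not a bound site.

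The labels' replicate numbers set more Wnt genes apart than the genotype labels did. An F test over numbers 1, 2 and 3, with genotype in the limma fit, called 5 of 52 Wnt genes (9.62%), against 6.35% of all genes, so the share was not far from the background. Wnt7b, a canonical ligand, stood at 26.2, 373 and 78.7 scaled reads in the knockout-labelled libraries 1, 2 and 3, and 32.2, 471 and 37.5 in the control-labelled ones 1, 2 and 3 (limma adjusted p = 0.0085). Number 2 exceeded number 1 by 3.80 on the log2 scale in the fit, and both labels showed this direction. Between the labels its log2 fold change was 0.14 ± 1.32 (SE), and its exons share 324 bases with the antisense gene AU022754.

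Wnt9a, Porcn and Nkd1 were lowest at number 2. Wnt9a stood at 1414, 185 and 417 scaled reads in the knockout-labelled libraries 1, 2 and 3, and 1428, 73.4 and 1140 in the control-labelled ones 1, 2 and 3 (limma adjusted p = 0.0385). The 3 libraries with the most Wnt9a, knockout 1, control 1 and control 3, were also the 3 with the most Myog, at 37228, 43370 and 43261. Porcn stood at 444, 98.7 and 191 scaled reads in the knockout-labelled libraries and 397, 86.2 and 338 in the control-labelled ones (limma adjusted p = 0.0252). Nkd1 stood at 163, 27.7 and 29.3 scaled reads in the knockout-labelled libraries and 182, 4.66 and 49.4 in the control-labelled ones (limma adjusted p = 0.0426). The summed level of 12 muscle differentiation markers was 419542, 14601 and 46892 scaled reads in the knockout-labelled libraries 1, 2 and 3, and 452637, 3682 and 235317 in the control-labelled ones 1, 2 and 3, so it too was lowest at number 2. Its part in the levels of Wnt9a, Porcn and Nkd1 was not tested.

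Sfrp1 was called over the numbers as well (limma adjusted p = 0.0465), being lowest at number 1. Wnt4, a ligand of the same wide range, stood at 51.3, 15.7 and 51.9 scaled reads in the knockout-labelled libraries and 35.6, 3.5 and 165 in the control-labelled ones, and missed the threshold (limma adjusted p = 0.0666). What a replicate number marks is not given in the labels. The calls over numbers depended on single libraries: there were 1, 5 and 3 without knockout 1, 2 and 3, and 2, 0 and 2 without control 1, 2 and 3. By edgeR there was 1 and by DESeq2 there were 9.

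**Figure D5:**
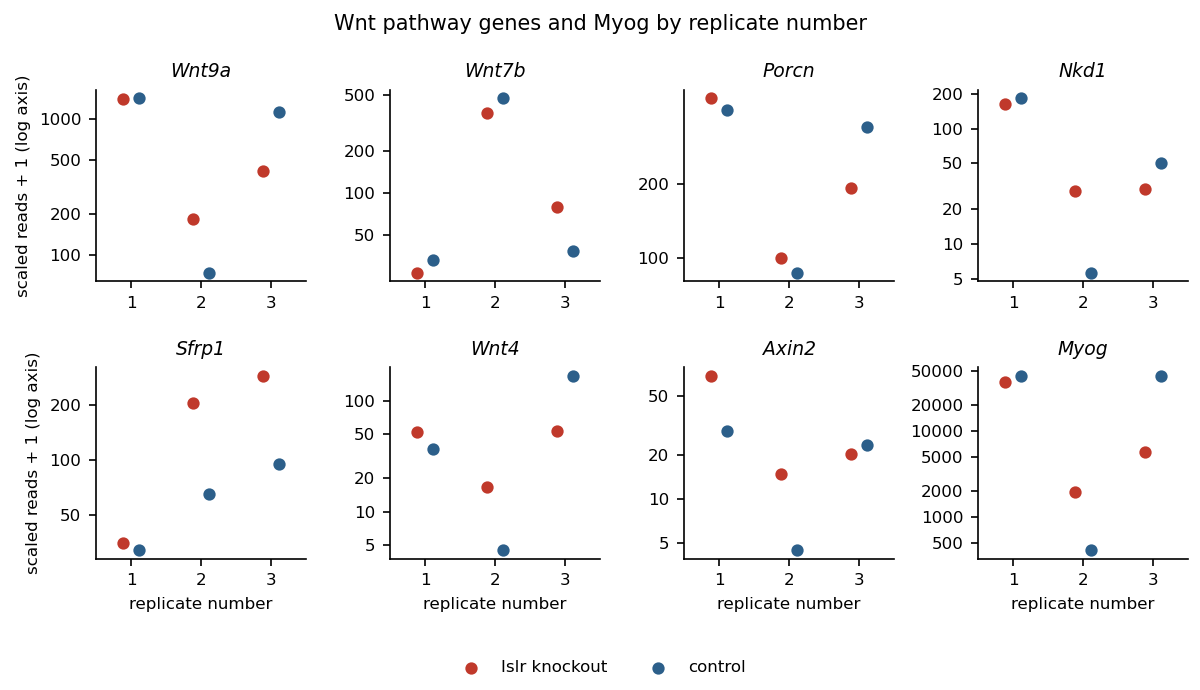
Scaled reads plus 1 of 7 Wnt genes and Myog by replicate number on log axes, with knockout and control libraries side by side at each number. Wnt9a, Porcn, Nkd1 and Myog are lowest at number 2, Wnt7b is highest there, and Sfrp1 is lowest at number 1 under both labels.

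The promoters of Wnt9a and Nkd1 are shown because both were lowest at number 2, the number with the least Myog, and both hold the letters CAGCTG, the E-box that muscle regulatory factors favour (capitals; the word reads the same on both strands). They are at chr11:59306680-59306979 for Wnt9a and chr8:88527383-88527682 for Nkd1, both on the plus strand of GRCm38.p6, from RefSeq.
Wnt9a: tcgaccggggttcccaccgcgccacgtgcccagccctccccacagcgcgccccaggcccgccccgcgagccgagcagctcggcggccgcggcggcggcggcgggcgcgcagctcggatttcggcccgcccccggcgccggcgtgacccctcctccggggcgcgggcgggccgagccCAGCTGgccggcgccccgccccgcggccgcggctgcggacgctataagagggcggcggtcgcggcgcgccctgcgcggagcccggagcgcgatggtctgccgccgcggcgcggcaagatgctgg
Nkd1: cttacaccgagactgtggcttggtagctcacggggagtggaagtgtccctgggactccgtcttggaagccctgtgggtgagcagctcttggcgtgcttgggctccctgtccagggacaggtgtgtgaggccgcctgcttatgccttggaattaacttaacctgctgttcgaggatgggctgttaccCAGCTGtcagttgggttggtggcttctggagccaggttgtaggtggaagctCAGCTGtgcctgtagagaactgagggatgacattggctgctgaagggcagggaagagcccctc
The word stood at 5 of the 51 Wnt promoters, against 16.3% of all promoters. Of the other Wnt genes lowest at number 2 under both labels, Fzd10 held 1 such word in its promoter. Wnt4, Axin2, Wls, Wnt2b and Rnf43 held none in their promoters. Porcn and Fzd8, lowest there as well, were not among the genes with a matched promoter. Wnt9a and Nkd1 were chosen after their values and letters were seen. Binding was not measured.

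Other genes of the pathway were read from 5 lists. At a limma adjusted p under 0.05, 0 genes of these lists were called between the labels. At an unadjusted p under 0.05 limma gave 1 of 18 extracellular modulators, Adgra2, and 1 of 22 polarity and calcium genes, Prickle2. The other lists had 0, and the share of all genes was 1.36%. The counts above 0 below stand beside 53% of all genes. Of 22 intracellular transducers 17 had a log2 fold change above 0 (median 0.15), with Frat1, an inhibitor of Gsk3, at 0.65 and the tankyrase gene Tnks at 0.39. Of 13 nuclear partners 6 were above 0 (median -0.02), with the corepressor genes Tle3 at -0.30 and Ctbp1 at -0.28. Of 18 extracellular modulators tested, of 19 listed, 10 were above 0 (median 0.04). One of them, Adgra2, a receptor-like protein that with Reck serves Wnt7a and Wnt7b signalling in vessels, stood at 451, 494 and 493 scaled reads in the knockout-labelled libraries and 253, 262 and 280 in the control-labelled ones, a log2 fold change of 0.85 (limma adjusted p = 1.0). Its highest control was below its lowest knockout value, a separation found in 2.65% of all genes.

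Of 22 genes of the polarity and calcium branches 15 were above 0 (median 0.14), with Prickle2 at 1.63 and the transcription factor gene Nfatc2 at 1.12. Prickle2 stood at 111, 115 and 379 scaled reads in the knockout-labelled libraries and 77.8, 24.5 and 81.8 in the control-labelled ones (limma adjusted p = 1.0). Of 21 transcripts known to increase with canonical signalling, 7 are among the Wnt genes above. Values were given for 19, of which 12 were higher on average with the knockout label. Of the 17 tested, 14 were above 0 (median 0.21), against 53% of all genes. Those with the smallest p were Notum, a secreted Wnt deacylase, at 1.23 from at most 3.35 scaled reads in any library, and Bmp4 at 0.86. Over the replicate numbers the limma F test called 1 of the 22 transducers (4.55%), 1 of 13 nuclear partners (7.69%), 4 of 18 extracellular modulators (22.2%), 2 of 22 polarity and calcium genes (9.09%) and 4 of these 17 transcripts (23.5%), against 6.35% of all genes. Apcdd1 is counted in both of the lists with 4, and Nkd1 is one of the Wnt genes above.

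The authors' deposited table of fold changes, which rests on the same libraries, listed 6 Wnt genes at an unadjusted p under 0.05: Wnt3 at a log2 fold change of 5.26, Wnt7a at 2.92, Sfrp1 at 1.47, Nkd2 at 1.44 and Wnt5a at 1.41, all higher with the knockout label, and Sfrp4 at -2.77. Those are 6 of 58, against 1.17% of all rows with a p-value in the authors' deposited table, where 283 were higher and 35 lower. The DESeq2 run given earlier had the same 318 of 27283 genes at an unadjusted p under 0.05, so these are not separate results. As Wnt3 had no reads in the controls, its value in the authors' deposited table is no bound. At the adjusted p-values of the authors' deposited table, 0 of the 58 passed, and 0 of all rows did. The authors' deposited table of GO terms named Wnt in 22 of 1475 terms, and 2 of these had an adjusted p under 0.05. One was negative regulation of canonical Wnt signalling, with 10 genes listed against 1.51 anticipated in the authors' deposited table, of which 4 were Wnt genes of the present set (Nkd2, Sfrp1, Sfrp4 and Wnt5a). The other in the authors' deposited table was negative regulation of non-canonical Wnt signalling, with 3 genes listed against 0.08 anticipated, including Sfrp1 and Sfrp4. All 262 genes listed there had an unadjusted p under 0.05 in the authors' deposited table of fold changes, and 0 of its rows passed adjustment.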

How the data were processed

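RNA was sequenced in 6 libraries. Tools listed in the submitters' processing notes, in no stated role, are HISAT2 (2.0.5), HTSeq, Trimmomatic, edgeR (3.18.1) and DESeq2 (1.16.1). Annotation and strand handling were not given in the sources used here. The deposited main table holds a signal per gene, which is counts divided by 1 size factor per library, and per the file headers the authors' own log2 fold change and p-value. Of its 27402 lines 36 were damaged and dropped. The 4-digit column name tied to control 1 has 2 digits exchanged against the label. All 58 Wnt genes had the coordinates of the GRCm38 annotation. The deposited raw counts were equal to the recovered reads for all 480 shared genes, and 100% of values were whole within 0.01 read. Another 12 per-sample columns were not used.

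The main test was limma 3.58.1 (trend, robust) in R 4.3.3 on log2(signal + 1), two-sided, for genes whose mean was 1 or more, with Benjamini-Hochberg adjustment over all of them and a threshold of 0.05; edgeR would have been used had the table held raw counts. Alternatives were edgeR 4.0.16 and DESeq2 1.42.0 on recovered reads, other scalings, filters and pseudocounts, a replicate block and leaving out libraries. The script was tested on simulated data. Same-numbered libraries deviated together from their group means (correlations 0.689, 0.633 and 0.625 over 14280 genes). Differently numbered ones lay between -0.513 and -0.245, and these negative values follow in part from taking off the group means. The numbers were taken to pair the libraries. That choice comes from the data, as the labels do not say what a number marks. Depth is given in the report, and the floor used for Wnt3 covers counting error in the controls only. The Wnt genes and all lists were chosen with earlier results of these data known. Named genes are those whose groups did not overlap, the 6 next by p, the 6 smallest p over numbers, the most abundant of each role, and Wnt7a, Fzd7, Wnt4, Wnt5a, Axin2 and Rspo1; of other genes Islr, Myog, Vangl2 and the 2 smallest p of each list. Fzd10, Dkk2, Dkk3 and other genes outside this rule are named after their values were seen.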

Additional observations from a re-analysis of the deposited data

How the results depend on the processing

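The count of Wnt genes called between the labels was 0 under every alternative run, and the count of all genes was 0 except 7 in DESeq2 with the replicate block, which was added after the data were seen. The replicate block changed no call of a Wnt gene. The median log2 fold change of the Wnt genes ran from 0.09 without knockout 3 to 0.32 without number 1. Directions of Wnt3, Wnt5a, Wnt7a, Wnt11, Sfrp1, Sfrp4, Nkd2, Fzd2, Fzd5, Ryk and Wnt6 were kept in all alternatives that gave a value, and the lowest adjusted p among these genes was 0.154, for Nkd2 without knockout 1 and control 2. Their sizes were less steady: Wnt5a ran from 0.73 (without knockout 3) to 1.77, Wnt7a from 1.28 (without knockout 3) to 3.62, Wnt11 from 0.85 to 2.79, Sfrp1 from 0.54 (without knockout 3) to 2.13, Nkd2 from 0.62 (without knockout 2 or 3) to 2.02, and Wnt3 from 1.79 to 5.50. Wnt genes at an unadjusted limma p under 0.05 were 0 of 51 without knockout 3 and 7 of 52 without knockout 1. Over replicate numbers, Wnt genes called were 5, and 1 by edgeR, 9 by DESeq2, 3 at each pseudocount of 0.5 and 0.1, 15 with no filter, 3 at a mean of at least 10, and 0 to 5 without single libraries. All genes called were 1291, and 514 by edgeR, 2658 by DESeq2, 566 at pseudocount 0.1, 3309 with no filter, 795 at a mean of at least 10, and 291 to 2513 without single libraries (291 without knockout 1, 2513 without knockout 2, 542 without knockout 3, 525, 429 and 390 without controls 1, 2 and 3). Among the genes given alternatives, signs that turned, with the cause not tested, were Wnt7b (-0.15 edgeR, -0.18 DESeq2), Nkd1 (-0.11, -0.10), Wnt4 (-0.79 in both), Fzd3 (0.011, 0.0021, and 0.034 with library size scaling), Dkk2 (0.86 in both, 0.39 and 0.22 with the replicate block, 0.031 with library size scaling) and Rspo1 (-0.15 and -0.79 at pseudocounts 0.5 and 0.1). Without number 1 they were Ctnnb1 (-0.0024), Rspo3 (1.07), Dkk2 (1.23), Lrp5 (-0.013) and Znrf3 (-0.028). Without knockout 1 and control 2 they were Nkd1 (-1.71), Wnt4 (-1.39), Fzd7 (-0.073), Axin2 (-0.57), Dkk2 (1.38), Wif1 (-0.81) and Fzd10 (-0.0098). Without single libraries the ranges were Axin2 0.085 to 1.42, Nkd1 -0.88 to 1.63, Wnt4 -1.12 to 1.48, Rspo3 -1.60 to 0.78, Wnt7b -0.86 to 1.38, Porcn -0.85 to 0.36, Wnt9a -1.42 to 0.72, Rspo1 -0.98 to 1.09, Ctnnb1 -0.15 to 0.19, Wls -0.011 to 0.27, Sfrp2 -0.031 to 0.85, Tcf7l2 -0.46 to 0.082, Dkk2 -0.78 to 1.43, Dkk3 -0.27 to 0.99, Wif1 -0.21 to 1.98, Fzd3 -0.30 to 0.18, Lrp5 -0.15 to 0.26 and Znrf3 -0.11 to 0.50. Genes under a filter, such as Wnt3 and Wnt6 in edgeR, got no value there. Levels of a few reads, such as Wnt3, Wnt6 and the R-spondins, are limited by depth.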
